A study of Mus musculus with 11 samples.

Results

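The comparison described here is IRF4 binding on day 1 against day 3 in cultured mouse B cells, read from 6 of the 11 libraries of the series, 3 per day. Chromatin immunoprecipitation with sequencing (ChIP-seq) recovers DNA bound by a protein, and places where that DNA piles up over an input library are called peaks. Both groups were B cells from the spleen of B1-8i mice (129 strain), in which a targeted antibody gene makes the cells specific for NP, a small hapten. Both received NP-Ficoll at 0.01 ng/mL with CD40L, IL-2, IL-4 and IL-5, at 0.5 M cells per mL. Of the culture conditions given in the labels, only the time differed. There was no unstimulated IRF4 library, so a change between the days is a change within stimulated cultures. Peak positions of the 6 IRF4 lists less than 200 bp apart were merged, which gave 20058 union regions from 28867 peaks. Each region was then scored as called or not called in each library. The sample labels describe day 3 cells as differentiated to plasma cells. Peak lists hold no expression values, so the cell type could not be checked by marker RNA, and the share of cells that had differentiated by day 3 is not known from these files.

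IRF4 is a transcription factor of the interferon regulatory factor family, raised when B cells are activated and kept high in plasma cells. Members of the family contact the core GAAA. Alone, IRF4 binds DNA weakly. With an Ets factor such as PU.1 it binds the Ets-IRF composite element (EICE), with BATF and a JUN protein it binds the AP-1-IRF composite element (AICE), and 2 IRF sites side by side form the interferon-stimulated response element (ISRE). Low levels of IRF4 are known to favour the germinal centre fate and high levels the plasma cell fate.

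The elements searched were GGAANNGAAA for the EICE, GAAANNGAAA for the ISRE, TGAGTCA for AP-1, and the AICE in its close and spaced forms. Both strands were read within 100 bp of the peak position, and a place could hold several motifs, since an AICE contains an AP-1-like site. The following mm9 sequences, from the NCBIM37 reference and its plus strand, show the elements at regions on which the results turn. They were chosen after the values were seen, and capitals mark the motif matches. The first 4 belong to regions called on day 3 only, with a pair of AICE in Ctla4 and ISRE in the others.
Ctla4 intron, chr1:60970303-60970424: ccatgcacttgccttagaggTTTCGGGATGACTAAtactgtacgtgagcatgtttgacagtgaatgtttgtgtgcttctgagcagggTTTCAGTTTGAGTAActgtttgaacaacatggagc
Ifi204 promoter, chr1:175697182-175697231: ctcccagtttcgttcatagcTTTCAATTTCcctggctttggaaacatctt
Oxr1 intron, chr15:41664083-41664132: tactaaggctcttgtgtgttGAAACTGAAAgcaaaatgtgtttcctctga
Clec16a intron, chr16:10741343-10741465: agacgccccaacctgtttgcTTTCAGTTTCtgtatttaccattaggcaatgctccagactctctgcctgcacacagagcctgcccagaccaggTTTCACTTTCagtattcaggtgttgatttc
The next 3 belong to regions called on day 1 only, and all hold an AP-1 site, within an AICE at Cd83 and Rasal1.
Cd83 upstream, chr13:43856675-43856729: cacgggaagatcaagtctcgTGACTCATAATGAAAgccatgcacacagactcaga
Rasal1 intron, chr5:121122063-121122113: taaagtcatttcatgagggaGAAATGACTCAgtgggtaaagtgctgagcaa
Pptc7 intron, chr5:122738723-122738769: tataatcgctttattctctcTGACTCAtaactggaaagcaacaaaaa
The last 3 belong to regions among the strongest of both days, an AICE near Enpp6 and EICE in Snx29 and Heg1.
Enpp6 upstream, chr8:48026825-48026875: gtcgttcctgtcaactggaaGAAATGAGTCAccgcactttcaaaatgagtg
Snx29 intron, chr16:11386042-11386091: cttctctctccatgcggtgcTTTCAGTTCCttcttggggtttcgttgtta
Heg1 intron, chr16:33745739-33745788: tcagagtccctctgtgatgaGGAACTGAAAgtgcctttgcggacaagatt

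The 6 lists differed in length, so their calls were compared at equal length. The day 1 lists held 825, 9326 and 8929 peaks in replicates 1, 2 and 3, and the day 3 lists held 2784, 1408 and 5595. The ranges overlap, and the shortest and the longest list both came from day 1. Taking the strongest 825 peaks of each library, by the authors' fold enrichment over input, left 2177 regions. At peak 825 the enrichment was 21.0, 53.5 and 50.4 in the day 1 libraries and 30.4, 22.1 and 36.2 in those of day 3. The full lists ended at 20.9 to 21.9 on day 1 and at 15.0 to 16.9 on day 3, so a place of the same enrichment could be called on day 3 and missed on day 1. The lists give no read counts, so the depth behind a peak is unknown. No interval for single peaks is given for that reason.

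At equal length, 121 regions were among the strongest 825 of all 6 libraries. Another 45 were there in 3 day 3 libraries and 0 day 1 libraries, and 43 the other way round. Regions in a single library were the largest group, with 504 on day 3 and 527 on day 1. In the full lists the 3-against-0 counts were 72 for day 3 and 38 for day 1, and 12200 regions were called in 1 day 1 library alone.

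**Figure D1:**
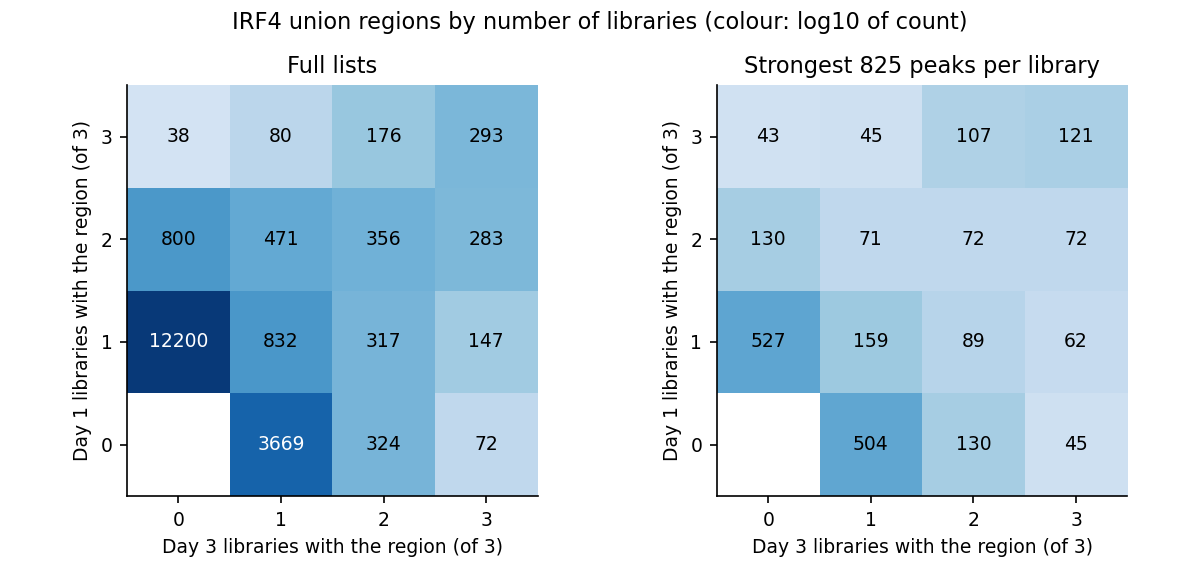
Number of IRF4 union regions by how many day 3 libraries (horizontal axis, of 3) and day 1 libraries (vertical axis, of 3) hold them, for full lists at left and the strongest 825 peaks per library at right. Colour gives log10 of the count; at equal length the off-diagonal corners hold 45 and 43 regions and the corner of all 6 libraries holds 121.

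The ISRE was found at more of the strongest day 3 peaks than of the strongest day 1 peaks. It lay within 100 bp of 6.79%, 6.18% and 7.64% of the strongest 825 peaks on day 1 and of 9.82%, 12.7% and 13.2% on day 3. The days did not overlap. The means were 6.87% ± 0.731 and 11.9% ± 1.84 (SD, n = 3 each), a difference of 5.05 percentage points (exact permutation test, two-sided, p = 0.1, the smallest that 3 against 3 libraries allow; Benjamini-Hochberg over 13 motifs 0.325). In windows 2 kb to either side of the same peaks the ISRE share was 3.27% on day 1 and 2.99% on day 3. The day 3 peaks thus held 3.12, 4.38 and 4.54 times the share of their own flanks, and the day 1 peaks 2.24, 1.67 and 2.47 times. The forms of the ISRE differed by library. GAAACAGAAA made up 24.5% of ISRE matches in day 3 replicate 2, against 7.14% to 14.3% in the other libraries. GAAAGAGAAA made up 21.3% in day 3 replicate 3, against 1.43% to 11.7%. The form GAAACTGAAA ran from 12.9% to 19.6% across all libraries. These are shares of matches, and a peak can hold several.

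Of the 13 motif shares, 4 did not overlap between the days, which is 30.8% of those tested. The others were the E-box CAGGTG, bound by E2A-type factors, the octamer ATGCAAAT of the OCT factors, and a control, the EICE letters reversed without complementing. E-box shares were 15.0%, 15.4% and 16.8% on day 1 and 18.8%, 19.9% and 19.4% on day 3 (difference 3.6, exact permutation p = 0.1). Octamer shares were 2.42%, 1.70% and 2.06% against 3.52%, 3.27% and 2.91% (difference 1.17, exact permutation p = 0.1). The reversed control AAAGNNAAGG was also higher without overlap, at 1.09%, 1.21% and 1.58% on day 1 and 1.94%, 1.70% and 2.67% on day 3 (difference 0.808, exact permutation p = 0.1), with 2.24% and 2.32% in the flanks. Lack of overlap therefore also occurred for a motif with no known factor. Relative to its own flanks the control stood at 0.514, 0.541 and 0.667 times on day 1 and at 0.744, 0.757 and 1.26 times on day 3, so these ratios did not overlap either, nor did those of the E-box and the octamer. In the full lists the ISRE shares were 6.79%, 5.54% and 5.22% against 11.7%, 12.6% and 12.8%, without overlap. There again 4 of the 13 motifs (30.8%) did not overlap: the ISRE, E-box and octamer, higher on day 3, and the EBF motif, lower on day 3, while the control overlapped.

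The AP-1 site went the other way in its means. It lay at 20.5%, 27.6% and 25.8% of the strongest day 1 peaks and at 20.8%, 15.6% and 14.8% of those of day 3. The lowest day 1 library and the highest day 3 library were nearly level, so the days overlapped, and the difference of -7.56 percentage points did not pass the test (exact permutation p = 0.2). AICE shares were 5.21%, 7.52% and 6.55% on day 1 and 6.79%, 4.48% and 4.36% on day 3 (difference -1.21, exact permutation p = 0.3). In windows 2 kb away the AICE was rare, at 0.209%. EICE shares were 36.7%, 24.6% and 26.3% on day 1 and 32.8%, 35.3% and 31.5% on day 3 (difference 4.00, exact permutation p = 0.4), against 2.14% in windows 2 kb away. The highest EICE share of all 6 belonged to day 1 replicate 1, the shortest list, and without that library the difference was 7.76. The EICE was the most common of the 4 elements in all 3 day 3 libraries and in day 1 replicate 1, whereas in day 1 replicate 2 the AP-1 site was more common and in replicate 3 the values were nearly level. In the full lists the AP-1 difference was -0.862 (exact permutation p = 1.0).

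**Figure D2:**
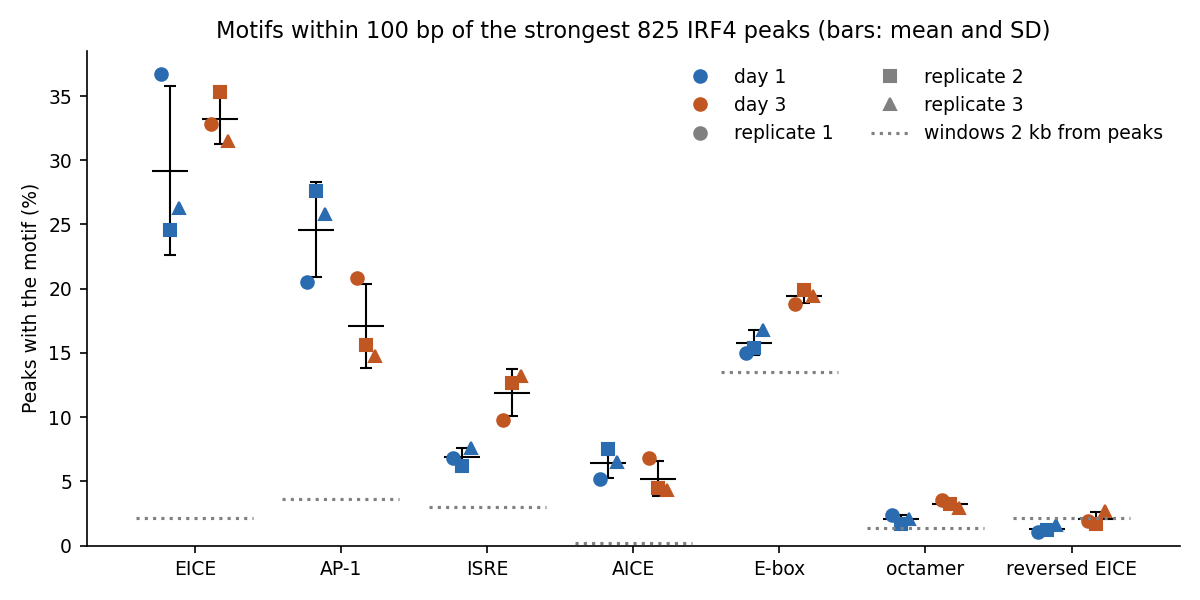
Share of the strongest 825 IRF4 peaks of each library with a motif within 100 bp (vertical axis, percent), day 1 in blue and day 3 in orange, with mean and SD of 3 libraries in black and the share in windows 2 kb from peaks of all lists dotted. ISRE, E-box, octamer and the reversed EICE control separate by day, while EICE, AP-1 and AICE overlap.

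The motif mix also changed along each list, and the ISRE and EICE behaved differently. EICE shares fell with rank in the longer lists, from 29.0% at ranks 1 to 200 to 6.67% at ranks 3301 to 8250 in day 1 replicate 2, and from 36.5% to 10.6% at ranks 3301 to 5595 in day 3 replicate 3. ISRE shares among the first 200 peaks were 5.0%, 4.5% and 5.0% on day 1 and 7.0%, 8.5% and 9.5% on day 3, and they were higher among the peaks that followed. At ranks 3301 to 8250 they were back at 4.61% and 4.14% in the long day 1 lists. In day 3 replicate 3 the share was still 11.1% at ranks 3301 to 5595. At ranks 826 to 1650 it was 8.24% and 7.64% in the long day 1 lists and 11.5% and 15.2% in day 3 replicates 1 and 3. Up to rank 1650, every day 3 library lay above every day 1 library in each rank group that both filled.

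**Figure D3:**
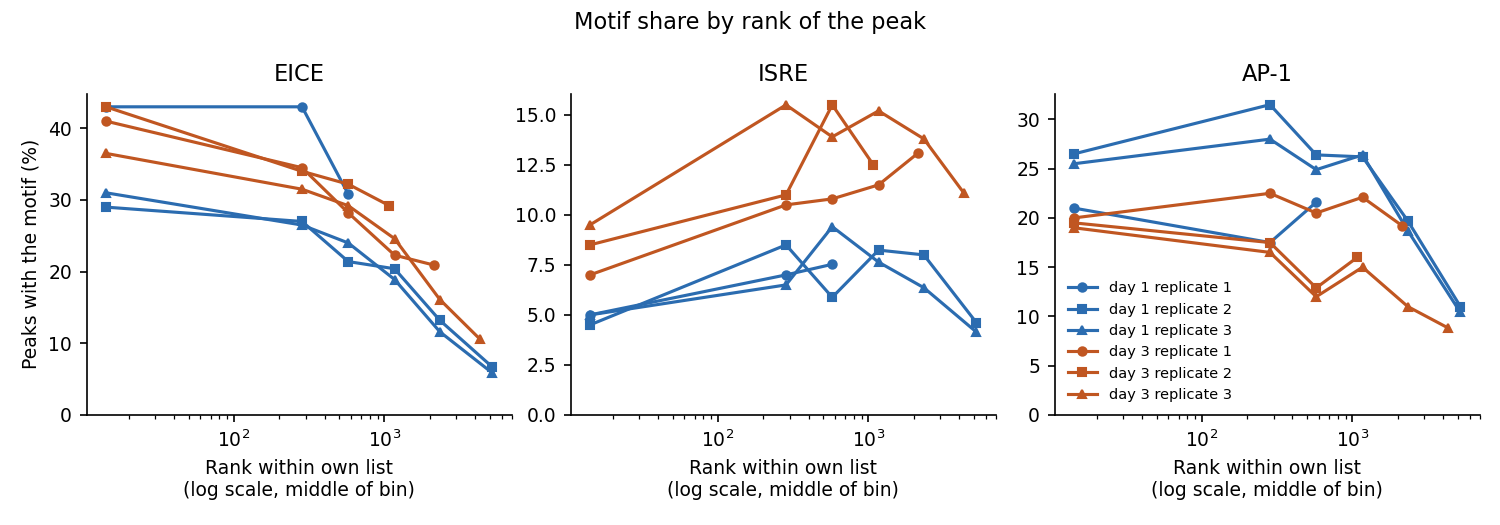
Share of peaks with an EICE, ISRE or AP-1 site (vertical axes, percent) by rank within a library's own list (horizontal axis, log scale, middle of each rank group), 1 line per library. EICE is lowest in the last rank group of all 6 libraries, and the day 3 ISRE lines lie above the day 1 lines.

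ISRE matches were more frequent on day 3 at the centre of the peaks, and in day 3 replicate 3 also away from it. In the central 20 bp there were 0.606, 0.970 and 0.970 ISRE per 100 peaks on day 1 and 2.18, 3.39 and 2.67 on day 3. AP-1 sites there numbered 4.73, 6.18 and 4.97 against 7.03, 3.15 and 3.03, and EICE 10.2, 5.21 and 3.88 against 10.1, 7.76 and 5.94. The ISRE values of the days did not overlap and the others did. In the 20 bp bin at -80 bp, day 3 replicate 3 again held 2.67 ISRE per 100 peaks. Day 3 replicates 1 and 2 held 0.364 and 1.09 in that bin, and the day 1 libraries 0.364, 0.485 and 0.606. Matches of EICE and ISRE were mostly separate: of 109 ISRE peaks in day 3 replicate 3, 23 also held an EICE. PU.1 peaks were absent from all 4 PU.1 libraries at 12.5%, 19.6% and 25.4% of ISRE peaks on day 1 and at 18.5%, 25.7% and 24.8% on day 3. For EICE peaks that share was 1.11% to 2.76%, and for AP-1 peaks 32.5% to 47.9%.

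**Figure D4:**
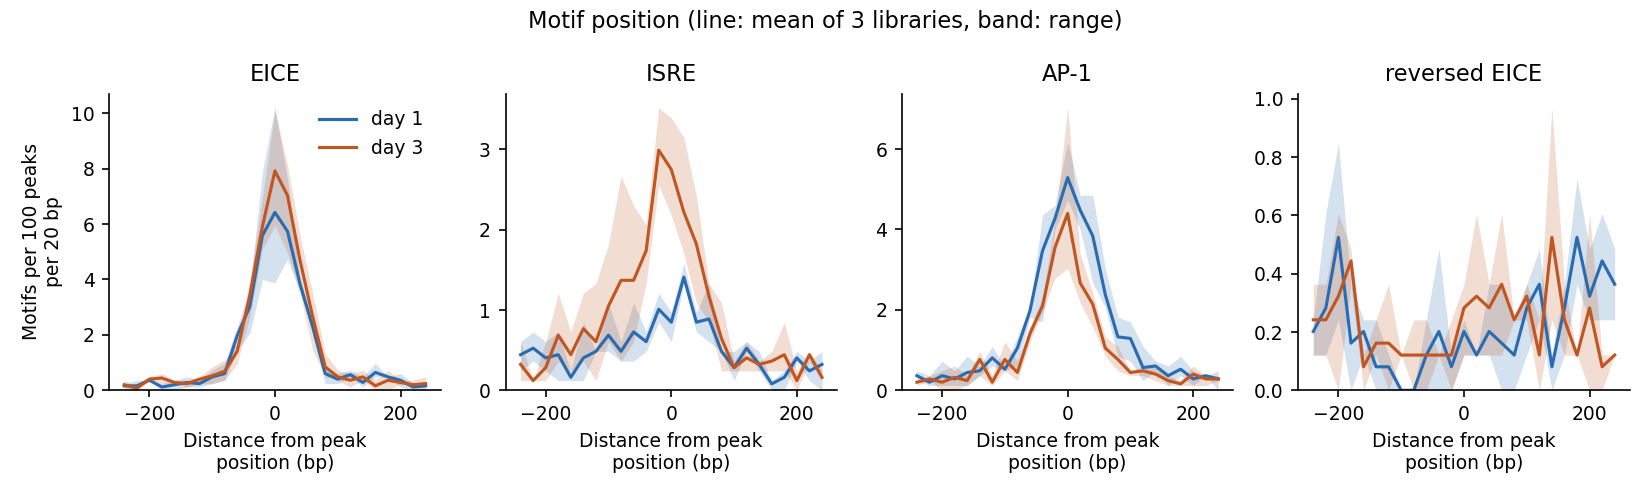
Motif matches per 100 peaks in 20 bp bins (vertical axis) against distance from the peak position in bp (horizontal axis), for the strongest 825 peaks, with lines for the mean of 3 libraries and bands for their range. ISRE matches at the centre are at 0.848 on day 1 and 2.75 on day 3, and the reversed EICE shows no central rise.

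A search over all 6-base words gave none that passed adjustment. Of 1962 words tested with limma on the log2 of the share plus 0.5 percentage points, 0 had an adjusted p under 0.05 (0.0% called), while 196 had an unadjusted p under 0.05. In 261 words, 13.3% of those tested, the days did not overlap. The 3 with the smallest p were all lower on day 3. GAGTCA, the end of the AP-1 site, was at 29.7%, 36.6% and 32.8% of day 1 peaks and at 29.1%, 23.2% and 22.3% of day 3 peaks (log2 difference -0.41 ± 0.09 SE, limma adjusted p = 0.069). GACTCA, the reverse complement of the other end, was at 25.9%, 33.1% and 30.9% against 25.7%, 21.5% and 19.0% (log2 difference -0.44, limma adjusted p = 0.069). CTCATA was at 11.6%, 12.0% and 13.5% against 8.85%, 7.88% and 9.58% (log2 difference -0.47, limma adjusted p = 0.069). Words with the next smallest p went both ways: AGTCAT and ACTCAT, which share letters with the AP-1 site, were lower on day 3, and CGAAAC and AAACTG were higher. The latter pair was chosen after the values were seen. CGAAAC was at 4.36%, 4.97% and 5.45% against 6.79%, 8.24% and 7.52% (limma adjusted p = 0.0751). AAACTG, which lies within the ISRE form GAAACTGAAA, was at 20.2%, 21.5% and 21.7% against 25.1%, 27.4% and 26.4% (limma adjusted p = 0.0928). The call depends on single libraries, since 12 words passed without day 1 replicate 1, 8 without day 3 replicate 1 and 2 without day 3 replicate 3. With 50 bp around the peak position 2 words passed, CGAAAC and another word of IRF type, AGTTTC, both higher on day 3.

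Regions were then sorted by their calls. A region counts as gained when it was among the strongest 825 in at least 2 day 3 libraries and called in no day 1 library even in its full list, as lost in the mirrored case, and as kept when it was among the strongest in at least 2 libraries of each day. These classes were made from the calls, so what follows describes them without a test. There were 38 gained, 53 lost and 372 kept regions, or 0.189%, 0.264% and 1.85% of all union regions. Of 698 regions strongest in at least 2 day 3 libraries, 38 were called in 0, 105 in 1, 221 in 2 and 334 in 3 day 1 libraries. Of 661 such day 1 regions, 53, 103, 188 and 317 were called in 0, 1, 2 and 3 day 3 libraries. Most strong peaks of a day were thus called at least once on the other. Within 1 kb of a gained region a day 1 peak was called in 3 of 38 cases, and within 1 kb of a lost region a day 3 peak in 4 of 53.

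The class sizes changed when single libraries were left out, with the rule of at least 2 libraries per day unchanged. Without a day 3 library, a gained or kept region then needed both remaining day 3 libraries. Without a day 1 library, a gained region had to be absent from fewer lists. Lost regions mirror this, so the direction of the changes was largely set by the rule. Leaving out day 1 replicate 2 or 3 left 80 or 91 gained regions, and leaving out day 3 replicate 1, 2 or 3 left 22, 17 or 15. Lost regions numbered 20 without day 1 replicate 2 or 3 and 128 without day 3 replicate 1. Kept regions numbered 214 and 233 without day 3 replicates 1 and 2.

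Gained regions lay at genes of several functions. The leading one was an intron of Ctla4, an inhibitory receptor best known from T cells. This region (chr1:60970109-60970570) was not called in any day 1 library, and its enrichment was 50.7, 43.8 and 78.5 in the day 3 libraries, at ranks 232, 127 and 104. It held both AICE printed above, with no peak in the PU.1 libraries. Another region, 31.6 kb downstream of the Ctla4 start and outside the gene (chr1:60997420-60997782), was called in all 6 libraries, at 21.8, 25.6 and 22.9 on day 1 and 30.0, 27.9 and 41.5 on day 3. Of the 20 listed T and NK cell markers, Ctla4 included, 0 to 2 lay near a strongest peak in any library of either day. Tbx21 of that list went the other way, near a strongest peak in 2 day 1 and 0 day 3 libraries. In the full lists Tbx21 had a peak in 2 libraries of each day. The promoter of Ifi204, an interferon-inducible gene of the DNA-sensing family, was called 0.117 kb upstream of its start (chr1:175697008-175697284) at 48.5, 39.4 and 30.5 on day 3 only, with an ISRE. Itga5, an integrin chain that binds fibronectin, had an intronic gained region (chr15:103191790-103192091) at 40.3, 31.0 and 64.9. Other leading gained regions were named by Tox2, Plekhm3, Vmn1r2, Oxct1, 3110043O21Rik, Copz2, Tbc1d16 and Ctsc, with day 3 enrichments from 19.1 to 88.9. A pair of further ISRE regions was chosen after the values were seen. Oxr1, in an intron, had 49.4, 35.6 and 37.7. The region in an intron of Clec16a, whose nearest annotated start is that of the cytokine signalling inhibitor Socs1 44.2 kb away, had 26.7, 28.8 and 42.0.

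Lost regions lay on both sides of the start of Il2ra. Il2ra encodes the inducible chain of the IL-2 receptor, and IL-2 was in the culture medium on both days. A region 0.122 kb upstream of its start (chr2:11564023-11564391) was called at 21.3, 50.9 and 64.9 in the day 1 libraries and in no day 3 library. Another in its intron, 2.72 kb downstream of the start (chr2:11566907-11567373), was called at 53.8 and 53.9 in day 1 replicates 2 and 3 only. Il2ra was not free of IRF4 on day 3, since each of the 3 full day 3 lists held a peak elsewhere in the gene or within 20 kb of it. Cd83, an activation marker of B and dendritic cells, had a lost AICE region 23.8 kb upstream (chr13:43856517-43857099) at 107 and 81.2 in day 1 replicates 2 and 3. This region lies outside the 20 kb neighbourhood of Cd83. That neighbourhood was called in 2 full day 1 lists and 0 day 3 lists, and held a strongest peak in 0 libraries of either day.

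Bach2 and Ebf1, regulators of the B cell state, each held both lost and kept regions. In Bach2, a repressor of plasma cell differentiation, an intronic region (chr4:32511488-32511856) 7.20 kb from the nearest start was called at 28.4, 97.3 and 116 on day 1 and in no day 3 library. The 2 kept intronic regions of Bach2 were called in all 6 libraries: the one with an EICE at 40.4, 156 and 165 on day 1 and 97.4, 67.1 and 86.6 on day 3, and the one with an ISRE at 58.4, 90.9 and 73.6 and 65.6, 58.4 and 80.8. In Ebf1, a lost intronic region 18.3 kb from the start stood at 65.3 and 97.4 in day 1 replicates 2 and 3. A kept Ebf1 region far from it, 277 kb from the start, with an EICE and an ISRE, stood at 63.7 and 64.6 in those and at 26.0 and 36.2 in day 3 replicates 2 and 3. A further lost region (chr11:44930353-44930566) lay outside the gene, 499 kb downstream of the Ebf1 start, its nearest. It held an EICE, with a peak in all 4 PU.1 libraries, and stood at 30.8, 54.1 and 41.8 on day 1. In all, 8 genes held regions of more than 1 class, among them Plekhm3 and Zswim6 with gained and kept ones. Rfx5, a factor for MHC class II transcription, had a lost region within 20 kb at 24.9, 65.6 and 46.3, nearest to the start of Pi4kb. The rest of the 12 leading lost regions were named by Ppp4r2, Osbpl9, Gm355, Gpr157, Gm4968, Zfp945, Myo1e, Rasal1, Epn2 and Zfp608, with day 1 enrichments from 26.9 to 107.

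Kept regions were among the strongest peaks by definition, and the leading ones named here were picked by rank. The AICE region 45.4 kb upstream of Enpp6, a phosphodiesterase gene, stood at ranks 1, 3 and 2 in the day 1 libraries, with enrichments of 129, 292 and 326. On day 3 it stood at ranks 1, 1 and 21, with 205, 126 and 142. The Snx29 intron stood at 115, 210 and 149 on day 1 and 127, 88.8 and 121 on day 3. Rbpj, the DNA-binding partner of Notch signalling, held an intronic AICE region at 51.3, 115 and 130 and at 82.3, 63.5 and 126. A region 47.6 kb upstream of Id2, an inhibitor of E proteins, was called in all 3 day 1 libraries at 67.0, 306 and 170 and in day 3 replicates 1 and 2 at 104 and 47.9. The other leading kept regions were named by Gm10655, Heg1, A4galt, 2610528E23Rik, Mkl1, Ndst1, Cnpy3 and Gm9034.

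Among the genes of the B cell programme, kept regions lay at identity and signalling genes. Pax5, which holds B cell identity, had an intronic EICE region at 33.0, 93.2 and 120 on day 1 and 69.0, 47.3 and 80.5 on day 3. Syk, the kinase that starts B cell receptor signalling, had a region 10.5 kb upstream that stood at 56.8, 93.5 and 94.3 and at 81.7, 51.6 and 185. Pik3ap1, an adaptor to PI3 kinase, had an intronic one at 57.7, 49.0 and 88.4 and at 55.7, 59.4 and 87.2. Prdm1, the gene of Blimp-1, which drives plasma cell differentiation, had an intronic ISRE region (chr10:44164190-44164577) without PU.1 at 28.5 and 74.6 in day 1 replicates 1 and 2 and at 33.4, 29.6 and 43.2 on day 3. Regions in introns of the cytokine receptor genes Il5ra, with 2 EICE, and Il6ra were called in all 6 libraries, as were Stat3 and Stat5a through a shared region. Other listed genes with a kept region were Atf3, Ccr6, Cd74, Cd79b, Ell2, Ets1, Foxo1, Gad1, H2-DMa, H2-DMb1, H2-DMb2, Icosl, Itgal, Myc, Nfkb1, Pou2f2, Psmb8, Psmb9, Sub1, Tap1 and Tlr4, at enrichments from 17.1 to 126. Of these genes, Gad1 belongs to the list of neuron and liver genes and Tlr4 to that of myeloid markers. Neighbours such as Tap1, Psmb8 and Psmb9, or the 3 H2-DM genes, share 1 region.

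The classes differed in the elements they held. An ISRE lay in 10 of 38 gained regions (26.3%), 3 of 53 lost (5.66%) and 28 of 372 kept (7.53%), against 6.99% of all union regions and 10.7% of the 2177 at equal length. An AP-1 site lay in 6 gained (15.8%), 15 lost (28.3%) and 79 kept regions (21.2%), against 12.3% of all and 20.9% of those at equal length. An EICE lay in 8 gained (21.1%), 6 lost (11.3%) and 153 kept (41.1%), against 9.44% of all and 26.7% at equal length. The classes are drawn from the strongest regions, and against those the EICE share of gained and lost regions lay below and that of kept regions above. None of EICE, ISRE, AICE or AP-1 was found in 15 gained (39.5%), 30 lost (56.6%) and 133 kept regions (35.8%). That share was 73.2% of all union regions and 46.1% of those at equal length. With the strongest 400 peaks, absence scored at equal length, the 2 longest lists per day, or each library left out in turn, the ISRE share of gained regions ran from 17.1% to 44.4% and that of lost regions from 2.31% to 8.11%. It was lower, at 6 of 45 (13.3%), in the regions strongest in 3 day 3 and 0 day 1 libraries, against 1 of 43 (2.33%) the other way round. In the few regions that were strongest in all 3 libraries of a day and called in none of the other, it was 2 of 8 (25.0%) for day 3 and 1 of 12 (8.33%) for day 1. PU.1 was called in all 4 PU.1 libraries at 36.8% of gained, 18.9% of lost and 69.1% of kept regions, and in none of them at 28.9%, 49.1% and 12.1%. Over all union regions these shares were 18.0% and 65.1%, and over the 2177 at equal length 51.7% and 23.6%. Median distance to the nearest start of a protein-coding gene was 16.0 kb for gained, 23.1 kb for lost and 19.6 kb for kept regions. It was 19.6 kb for all union regions and 17.9 kb for the 2177 at equal length. Promoters, within 1 kb of a start, held 3 gained (7.89%), 2 lost (3.77%) and 19 kept regions (5.11%). They held 10.9% of all union regions and 8.87% of those at equal length, so the share of each class lay below both.

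At the level of genes, a gene was counted as bound when one of the strongest 825 peaks fell inside it or at most 20 kb away. Of 22380 protein-coding genes, 3.65% to 3.82% were bound in the day 1 libraries and 3.73% to 3.91% in those of day 3. Gained regions lay near 42 genes (0.188%), lost regions near 48 (0.214%) and kept regions near 381 (1.70%). B cell identity and receptor genes were bound in 9, 9 and 11 of 27 cases on day 1 and in 10, 9 and 8 on day 3. Plasma cell regulators and secretion genes were bound in 6, 5 and 6 of 24 cases on day 1 and in 9, 7 and 6 on day 3. Antigen presentation genes were bound in 11, 8 and 8 of 20 cases against 9, 10 and 7. In these 3 lists the days overlapped.

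Interferon-stimulated genes were bound in 2, 3 and 2 of 29 cases on day 1 and in 5, 5 and 4 on day 3, without overlap. This was 1 of the 13 lists compared (7.69%). Few members lay behind this. Psmb9 and Tap1 were bound in all 6 libraries by 1 shared region. Gbp3 was bound in 0 day 1 and 3 day 3 libraries, Ifi204 and Ifit1 in 0 and 2, and Irf7 in 0 and 1. In the full lists only Ifi204 among these stayed without a day 1 peak, since Gbp3, Ifit1 and Irf7 were each called in 2 day 1 libraries. Cytokine receptor and STAT genes were bound in 5, 7 and 5 of 18 cases on day 1 and in 4, 7 and 2 on day 3. Homing receptors were bound in 6, 5 and 4 of 15 against 4, 3 and 4, and NF-kB and activation genes in 4, 3 and 3 of 21 against 5, 4 and 5. Germinal centre genes were bound in 2, 2 and 2 of 21 against 1, 2 and 3, and AP-1 and BATF partners in 2, 2 and 2 of 15 against 1, 2 and 2. T and NK cell markers were bound in 0 to 2 of 20 genes in any library, myeloid markers in 1 to 3 of 20, neuron and liver genes in 0 to 1 of 20, and erythroid markers in 0 of 15.

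**Figure D5:**
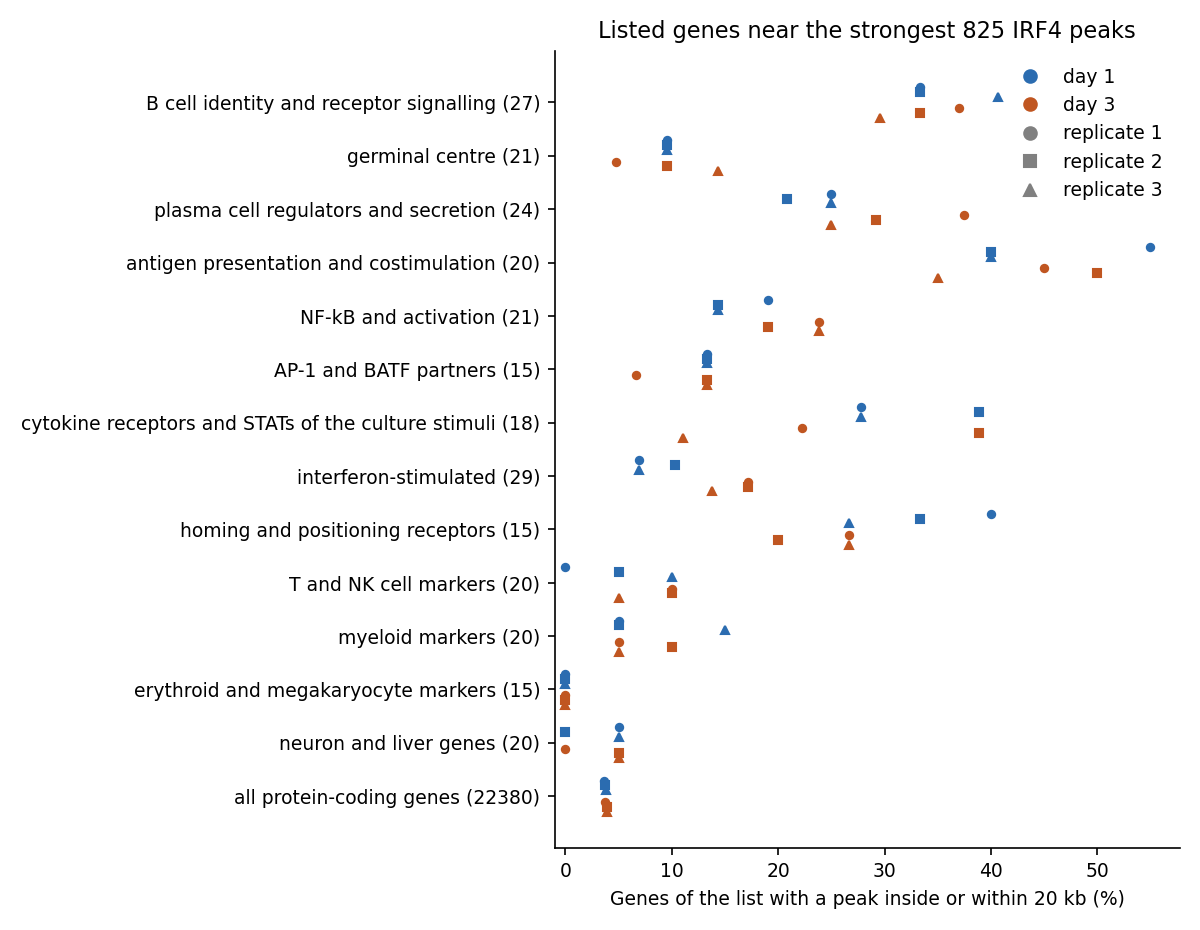
Percent of the genes of each list (number of genes in brackets) with one of the strongest 825 IRF4 peaks inside or within 20 kb (horizontal axis), by library, day 1 in blue and day 3 in orange. Of the 13 lists, 1 separates by day, the interferon-stimulated genes with 2 to 3 genes on day 1 and 4 to 5 on day 3, and all protein-coding genes lie between 3.65% and 3.91%.

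Of all genes, 43 (0.192%) were bound in 0 day 1 and 3 day 3 libraries and 37 (0.165%) the other way round. Listed genes of the first kind were Blnk, Ctla4, Gbp3 and Irf4, and of the second Batf3, named after their values were seen. Irf4 itself had an ISRE region without PU.1 16.3 kb upstream (chr13:30824584-30824875), at 47.0, 26.5 and 37.8 on day 3 and at 48.4 in day 1 replicate 3 only, where its rank was 918. Blnk, the adaptor below the B cell receptor, had a region 1.25 kb upstream at 43.0, 44.1 and 62.5 on day 3 and at 40.0 and 46.3 in day 1 replicates 2 and 3, ranks 1651 and 1040. For Blnk the enrichments of the days lay side by side and the ranks differed. A Gbp3 region, 0.082 kb downstream of the start with an ISRE, an EICE and an AP-1 site, stood at 45.5 and 34.5 in those day 1 libraries and at 45.7, 33.1 and 24.3 on day 3. In day 3 replicate 3 its rank was 2026, and Gbp3 counted as bound there through another region. That region, 16.4 kb downstream of the start (chr3:142240192-142241014) and without an ISRE, was called at 52.1 in day 3 replicate 3 only. Batf3, an AP-1 family partner of IRF4, had a region 16.7 kb downstream at 23.7, 115 and 72.9 on day 1 and at 29.7 in day 3 replicate 1 only.

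Among the 293 regions called in all 6 libraries, ranks were compared after ranking these regions anew within each library, a fit added after the data were seen. Of them, 0 had a limma adjusted p under 0.05 (0.0% called) and 55 an unadjusted p under 0.05. The smallest limma adjusted p was 0.0624. Several regions shared it, among them those of Gmfb and Diap3, ranked higher on day 3, and of Maf and Afg3l1, ranked lower, named after their values were seen. The Diap3 intron, in a gene for an actin nucleator, stood at 26.9, 32.3 and 29.7 on day 1 (ranks 217, 283 and 282 of 293) and at 66.0, 42.4 and 53.7 on day 3 (ranks 58, 86 and 125). Maf, a transcription factor gene, was the nearest start to a region at 45.6, 89.0 and 137 on day 1 and at 38.3, 23.7 and 19.9 on day 3. Neither region overlapped between the days in its re-made ranks. Without day 3 replicate 1 there were 5 calls, and without day 1 replicate 1 there was 1.

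Libraries of the same day shared more strongest peaks than libraries of different days in their means. Of the 825 peaks, 52.3% ± 5.58 (SD, 6 pairs) had a partner less than 200 bp away within a day and 43.8% ± 8.50 (SD, 9 pairs) between days, a difference of 8.56 percentage points (exact permutation test over libraries, p = 0.1, the smallest it can give). The pairs overlapped, from 47.2% to 62.1% within and from 31.3% to 56.5% between days. The pair that shared most between days was replicate 1 of each, at 56.5%. The lowest shares were those of day 3 replicate 3 with the day 1 libraries, at 39.5%, 31.3% and 32.5%. In that library 13.1% of the strongest regions were called nowhere else, against 1.21% to 5.58% in the other 5, and its GC content at equal length was 44.4% against 45.5% to 47.1%. The title of that library carries a pair of numbers where the other IRF4 libraries carry a single number. Its part in the results was not tested beyond leaving it out.

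At equal length, PU.1 co-occupancy and position relative to genes did not separate the days. A same-day PU.1 peak accompanied 83.3%, 68.0% and 69.2% of the strongest day 1 peaks and 79.9%, 85.6% and 82.2% of those of day 3 (difference 9.05, exact permutation p = 0.3). Promoters held 6.67%, 7.88% and 7.64% on day 1 and 7.52%, 9.33% and 8.61% on day 3 (difference 1.09, exact permutation p = 0.3). Gene bodies outside promoters held 45.0%, 45.2% and 48.4% against 47.3%, 47.0% and 47.8%. In the full lists the gene body shares did not overlap, at 45.0%, 45.2% and 45.2% on day 1 and 47.7%, 47.4% and 46.3% on day 3 (difference 2.0, exact permutation p = 0.1). The direction of the PU.1 difference turned when a peak in both PU.1 libraries was required (-0.323), and that of the promoter difference turned with the 2 longest lists per day (-0.790).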

How the data were processed

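The 6 IRF4 libraries (fragments of about 250 bp) were read as peak lists called per library. The authors used the mm9 build and the QuEST peak caller with an input library, per the labels and the series' design text. Neither the aligner nor the QuEST settings are named, and both count as not given in the sources used here. The deposited maximum enrichment is the authors' fold over input, a linear ratio, used only to rank and describe peaks within a list. Depth is unknown, so no read-based precision can be given, and whether positions count from 0 or 1 is not given. The input library and the lists per factor and day were not used here; PU.1 lists served for co-occupancy. Replicates carry the description's number. The labels do not say that libraries came from separate animals, so p-values cover only library-to-library spread, which may be technical.

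Regions, classes, motifs (13, both strands, 100 bp around the position, with 2 kb flanks) and gene distances (GENCODE M1, 22380 protein-coding genes; starts of protein-coding transcripts) were computed in Python 3.11.15. The NF-kB, EBF, RUNX, STAT and PU.1 motifs were GGGANNTTCC, TCCCNNGGGA, TGTGGTTT, TTCNNNNGAA or TTCNNNGAA, and GAGGAAGT. Word and rank fits used limma 3.58.1 in R 4.3.3 with Benjamini-Hochberg adjustment, and the word fit was tested on simulated data; words needed a mean of 10 peaks per library. Library values were compared by two-sided exact permutation. The 13 lists hold 257 genes, all matched, some through older symbols. Named regions are the 12 of each class with the best worst rank, and all listed genes near a class region. A few named items are not reported here. Members and lists were chosen with earlier results of these data known. Alternatives were list length, merge distance, windows, PU.1 rule, pseudocount, filter and each library left out.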

Additional observations from a re-analysis of the deposited data

How the results depend on the processing

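Differences in EICE, ISRE and AP-1 shares kept their direction under all 11 alternatives each, but not their size: leaving out single libraries gave differences of 4.40 to 6.10 percentage points for the ISRE and 1.70 to 7.76 for the EICE (lowest without day 1 replicate 2, highest without day 1 replicate 1), and of -9.64 to -6.06 for AP-1, whose difference was -0.862 with full lists; no share can pass 0.05 with 3 against 3 libraries. Class sizes depended on list length. Gained, lost and kept regions numbered 9, 13 and 172 with the strongest 400 peaks, and 396, 838 and 1108 with full lists. Gained and lost regions numbered 228 and 310 with the 2 longest lists per day, and 175 and 173 with absence scored at equal length. Leaving out single libraries gave 15 to 91 gained, 20 to 128 lost and 214 to 311 kept regions. The rule of at least 2 libraries per day was unchanged there, which largely set the direction of the class changes. Calls of words and of core regions then ran from 0 to 12 and from 0 to 5. The AICE difference turned to 0.189 with full lists, the promoter difference to -0.790 with the 2 longest lists, and the PU.1 difference to -0.323 when both PU.1 libraries were required. The causes were not tested. With 50 bp windows 2 words passed.

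Replicate numbers did not pair the libraries: deviations of same-numbered libraries correlated at -0.0622, 0.312 and -0.0951. The numbers in the titles differ and would pair day 1 replicates 2 and 3 with day 3 replicates 1 and 2, at 0.0999 and 0.14. With the replicate block 11 words passed, 10 of them lower on day 3, and 0 core regions; the exact sign-flip p was 0.25 for the ISRE and promoter shares, the smallest it can give, and 0.5 for EICE, AICE, AP-1 and PU.1. The sequencing depth is unknown and limits all statements on absence.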
